A study of Schizosaccharomyces pombe with 28 samples.

Results

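Messenger RNA levels were followed for 9 genes of the machinery that shortens poly(A) tails, removes caps and degrades mRNA in the fission yeast Schizosaccharomyces pombe, in strains with and without the RNA-binding protein Zfs1 and the transcription factor Cbf12. The genes were chosen by name, not by their measured values: ccr4, caf1, pab1, dcp1, dcp2, edc3, ste13, exo2 and upf1. They were matched by current symbol or synonym. The annotation used named 2899 S. pombe genes on the array and did not list 5390 of its 10928 probe sets. All genes here means these 2899, and a measured gene is one with a listed probe set. Those 9 names matched 12 genes. The symbol pab1 now belongs to a regulatory subunit of protein phosphatase 2A, and the poly(A)-binding protein, for which pab1 is a synonym, carries the symbol pabp, so pabp was counted among the decay genes. The name caf1 is also a synonym of hba1, a Ran-binding protein of nuclear export, and exo2 is also a synonym of sec5, an exocyst subunit for which no probe set was listed. The 9 decay genes were therefore ccr4, caf1, pabp, dcp1, dcp2, edc3, ste13, exo2 and upf1, each read by 1 probe set, while pab1 and hba1 are described apart as genes that share only a name.

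Zfs1 belongs to the tristetraprolin family of zinc finger proteins, which bind AU-rich elements of mRNAs. In mammals tristetraprolin recruits the CCR4-NOT deadenylase, which shortens the poly(A) tail, after which the message is decapped by Dcp2 with its partners and degraded from its 5′ end by an Xrn1-type exonuclease. The genes described here encode parts of that machinery. Their mRNA levels were compared, and protein levels or decay rates were not analysed here.

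The arrays came from 28 samples in 3 projects, which are the experiments named in the labels. Project 488 had 3 zfs1-null and 3 WT samples, project 529 had 5 zfs1-null and 5 WT samples, and project 582 had 3 samples each of the zfs1 cbf12 double null, the zfs1-null, the cbf12-null and the WT. All cells were untreated and were growing exponentially in rich medium (YES) at 30 °C, and RNA carrying a poly(A) tail was selected before labelling, so a level here is that of polyadenylated message. The study calls the samples biological replicates but the labels do not say that each came from its own culture, so the tests reflect the variation among these samples, which may be technical. Fewer cells with a transcript and less transcript per cell cannot be told apart in such bulk RNA. Signals are MAS5 intensities scaled to a common trimmed mean on each array, so a shift shared by all genes would not be seen, and the levels of different genes, read by different probes, were not set against each other.

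The strains carried the deletions their labels name. Loss of zfs1 signal in the zfs1-null was at least 114-fold, 81.3-fold and 87.7-fold relative to WT in projects 488, 529 and 582, and 87.6-fold in the double null. For cbf12 it was at least 38.1-fold in the cbf12-null and 34.5-fold in the double null, with each null array taken at its background level or its own signal, whichever was higher. arz1, an mRNA known as a Zfs1 target, was higher by 1.79 on the log2 scale in zfs1-null than in WT over all projects. Within groups, arrays correlated with r of 0.976 to 0.995 over all genes. Markers of other cell states also differed between strains in the same limma fits (adjusted p below 0.05). Between zfs1-null and WT over all projects 41.6% of all 2899 genes passed, with 677 genes higher and 530 lower. Between cbf12-null and WT 28.1% passed, with 266 genes higher and 549 lower. Of 8 stationary phase and stress genes, 7 were lower in zfs1-null than in WT over all projects, with a summed signal of 12085 to 14043 in zfs1-null against 15770 to 17297 in WT arrays of project 488, 12154 to 12728 against 14938 to 15943 in project 529, and 9905 to 10683 against 10493 to 11089 in project 582. In the cbf12-null all 8 were higher than in WT, with a summed signal of 19169 to 21604, and in the double null it was 13009 to 13403. Of 5 mating genes, mfm1, mfm2, mfm3, mam1 and map3, 3 were lower in zfs1-null than in WT over all projects. The summed signal of the 5 was 2953 to 3112 in zfs1-null against 3275 to 3439 in WT arrays of project 488. In project 529 it was an overlapping 4153 to 4740 in zfs1-null against 4535 to 4900 in WT arrays. In project 582 it was 3259 to 3604 in zfs1-null against 5076 to 5428 in WT arrays. Of 3 further mating genes, map1, map2 and mam2, 2 were lower over all projects. Of 6 sporulation and meiosis genes 4 were lower and 1 was higher. No gene of these lists was at background in any group. These markers moved with the strains in which the decay genes are compared, and their part in those results was not tested.

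Differences in decay mRNAs between zfs1-null and WT were small, and over all projects these genes passed in either direction about as often as all genes. Over the 3 projects together, 4 of the 9 decay genes passed the test between zfs1-null and WT (limma, adjusted p below 0.05), all of them higher: dcp1, dcp2, caf1 and exo2, by 1.09-fold to 1.10-fold. Among all 2899 genes 41.6% passed in either direction and 23.4% were higher. The median log2 difference was 0.11 for the decay genes and 0.02 for all genes. The difference for arz1 in the same fit was 1.79. In project 488 none of the 9 passed, 2 having an unadjusted p below 0.05, where 19.7% of all genes passed. In project 529, with 5 arrays per strain, 5 passed, 4 higher and 1 lower, where 42.2% of all genes passed, 25.7% higher and 16.5% lower. In project 582 none passed in limma, 2 having an unadjusted p below 0.05, where 11.3% of all genes passed. The fit over all projects uses the same arrays as the project fits, so the counts do not stand for separate evidence.

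**Figure D1:**
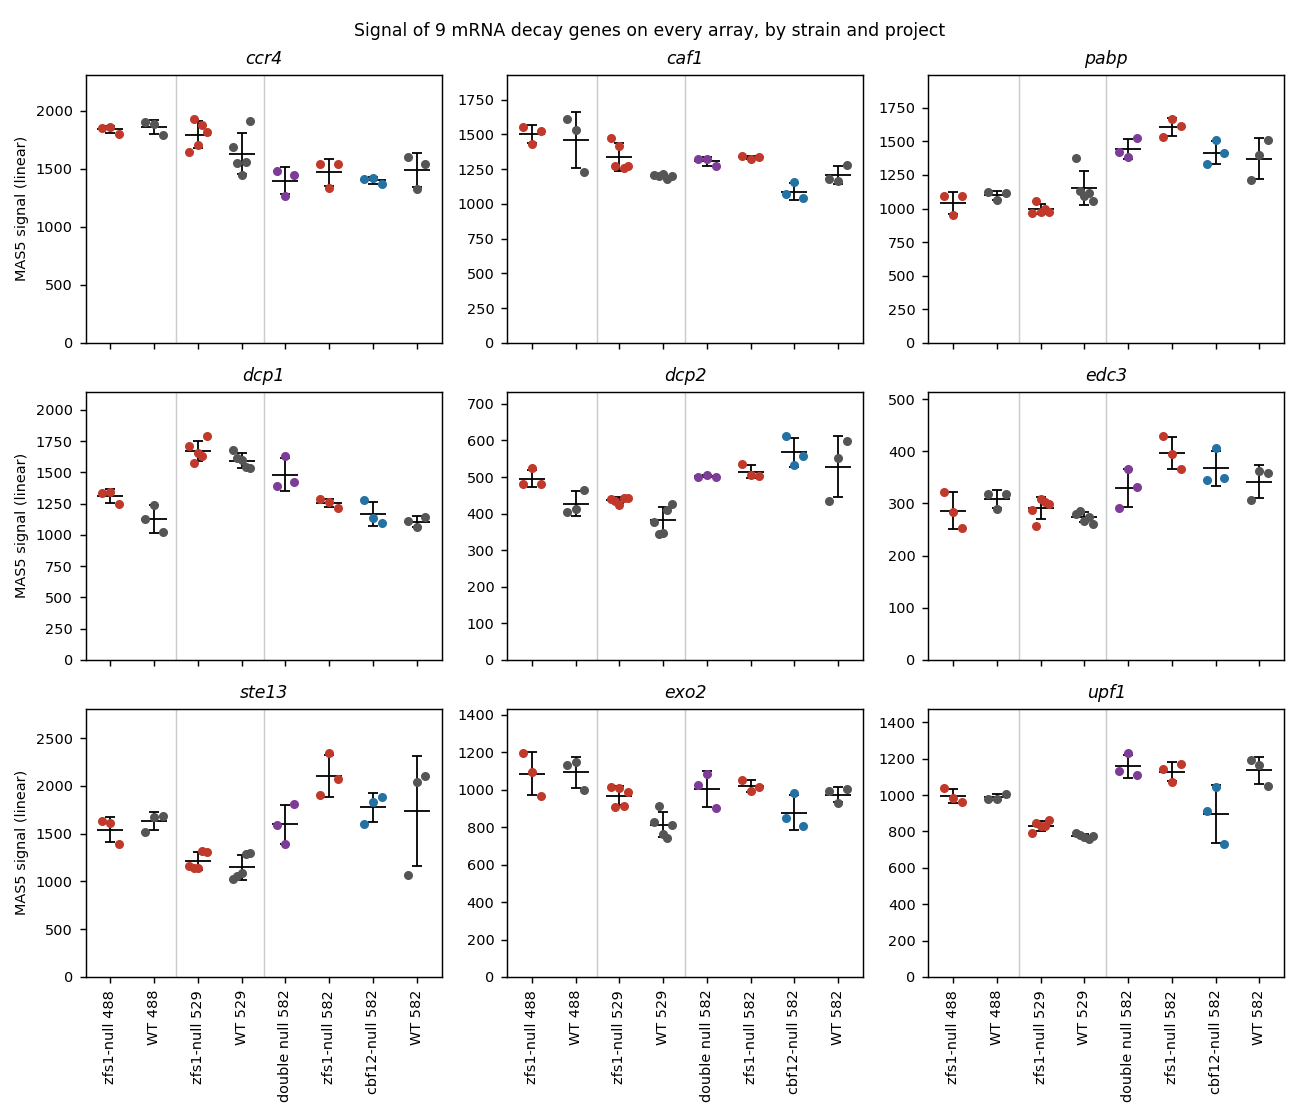
Linear MAS5 signal of the 9 decay genes (vertical axes) on each of the 28 arrays, by strain and project number (horizontal axis); points are arrays, bars are means with SD, and grey lines part the projects. dcp1 shows the double null above the cbf12-null and the WT of project 582, and all 9 genes show shifts between projects.

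The deadenylases Ccr4 and Caf1 are the catalytic subunits of the CCR4-NOT complex. caf1 passed between zfs1-null and WT in project 529 and over all projects, and was higher in zfs1-null. In project 529 it was 1475, 1274, 1413, 1258 and 1269 in the zfs1-null arrays, against 1205, 1199, 1215, 1180 and 1198 in the WT arrays. Every zfs1-null array lay above every WT array there, at a log2 difference of 0.15 ± 0.05 (SE, n = 5 each, adjusted p = 0.0182 in limma). In project 582 caf1 was 1343, 1319 and 1338 in zfs1-null arrays against 1177, 1165 and 1281 in WT arrays, which did not overlap either, though the adjusted p was 0.198. In project 488 the zfs1-null arrays, at 1554, 1428 and 1527, lay within the range of the WT arrays, at 1608, 1532 and 1228, and the difference of 0.05 had an adjusted p of 0.714. Over all projects the difference was 0.12 ± 0.04 (SE, n = 11 each, adjusted p = 0.0138), and it passed in all 22 fits that left out 1 array. The project 529 call on its own was lost without zfs1-null replicate 1 (adjusted p = 0.0512), and also with quantile normalization (0.12, adjusted p = 0.0597) or with array medians set equal (0.10, adjusted p = 0.121).

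caf1 was also higher without Zfs1 in cells that lack Cbf12. In project 582 it was 1320, 1324 and 1271 in the double null arrays against 1068, 1159 and 1039 in the cbf12-null arrays. The groups did not overlap, and the difference was 0.26 ± 0.07 (SE, n = 3 each, adjusted p = 0.0092 in limma). This call passed in all 12 fits without 1 array of project 582. Against WT the double null arrays overlapped, and the difference of 0.11 did not pass (adjusted p = 0.222). With array medians set equal it was 0.21 (adjusted p = 0.0247). Against the zfs1-null the double null differed by -0.03 (adjusted p = 0.789). The cbf12-null arrays themselves lay below all WT arrays, at a log2 difference of -0.15 with an adjusted p of 0.116, which did not pass. The caf1 interaction of the deletions, 0.12, did not pass either (adjusted p = 0.497). With all arrays ccr4 did not pass in any contrast of strains. Its arrays ran from 1265 to 1928, with a log2 difference of 0.06 over all projects (95% interval -0.04 to 0.15, adjusted p = 0.343) and 0.14 in project 529 (adjusted p = 0.104). The project 529 difference passed without WT replicate 5 (0.20, adjusted p = 0.0112).

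The cytoplasmic poly(A)-binding protein, encoded by pabp, coats the tail that the deadenylases remove. Its response to loss of Zfs1 differed between projects. In project 529 pabp was 965, 1058, 978, 994 and 973 in zfs1-null arrays, against 1373, 1132, 1093, 1118 and 1055 in WT arrays. Here the zfs1-null arrays were low, with 1 overlapping the lowest WT array, and the log2 difference was -0.21 ± 0.06 (SE, n = 5 each, adjusted p = 0.0141). WT replicate 1 stood apart at 1373, and without it the difference was -0.15 and still passed, with the highest adjusted p of any array left out at 0.0333. In project 582 pabp was 1532, 1664 and 1615 in zfs1-null arrays, against 1211, 1398 and 1506 in WT arrays, so the zfs1-null arrays were all higher. That difference of 0.23 ± 0.08 did not pass (SE, n = 3 each, adjusted p = 0.0864) with all arrays but did without WT replicate 3 (0.30, adjusted p = 0.0431), and in project 488 the difference was -0.08 (adjusted p = 0.466). The test of the difference in zfs1 effect between projects was passed by pabp alone of the 9 (limma F test, adjusted p = 0.0143, all 22 fits without 1 array included), where 19.7% of all genes passed. The zfs1 effect and the project are crossed in that test, but what differed between projects beyond the labels was not analysed here.

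Dcp1 and Dcp2 form the decapping enzyme, Dcp2 being the catalytic subunit and Dcp1 its activator, and Edc3 is an enhancer of decapping. dcp1 passed between zfs1-null and WT over all projects, and it passed between the double null and both strains of project 582 that have Zfs1. In project 488 its signal was 1337, 1346 and 1244 in zfs1-null arrays against 1127, 1239 and 1020 in WT arrays. In project 582 it was 1283, 1261 and 1218 in zfs1-null arrays against 1113, 1061 and 1144 in WT arrays. In both projects every zfs1-null array lay above every WT array, with log2 differences of 0.22 and 0.18, neither of which passed (adjusted p = 0.0707 and 0.162). The project 488 difference passed without WT replicate 2 (0.29, adjusted p = 0.0464) or zfs1-null replicate 3 (0.25, adjusted p = 0.0257). In project 529 dcp1 was 1709, 1578, 1658, 1633 and 1788 in zfs1-null arrays, against 1675, 1618, 1598, 1544 and 1537 in WT arrays. Those groups overlapped at a difference of 0.07 (adjusted p = 0.198). Over all projects the difference was 0.14 ± 0.04 (SE, n = 11 each, adjusted p = 0.00209), and it passed in each of the 22 fits without 1 array.

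dcp1 was also higher without Zfs1 in cells that lack Cbf12. The double null arrays of project 582 had a dcp1 signal of 1389, 1632 and 1421, against 1278, 1133 and 1098 in the cbf12-null arrays and the 1113, 1061 and 1144 given above for WT. No double null array overlapped either strain. The log2 difference was 0.34 ± 0.08 against the cbf12-null (SE, n = 3 each, adjusted p = 0.00489) and 0.42 ± 0.08 against WT (adjusted p = 0.00144, 1.34-fold), and both calls passed in all 12 fits without 1 array. Against the zfs1-null the double null was higher by 0.24, again without overlap, but that difference did not pass (adjusted p = 0.0825). With array medians set equal it was 0.31 (adjusted p = 0.0399), and without double null replicate 1 it was 0.28 (adjusted p = 0.0423). The cbf12-null itself differed from WT by 0.08 (adjusted p = 0.487), and the interaction of the deletions was 0.16 (adjusted p = 0.43).

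dcp2 passed between zfs1-null and WT in project 529 and over all projects, and was higher in zfs1-null. In project 529 its signal was 439, 435, 424, 443 and 442 in zfs1-null arrays, against 378, 345, 348, 409 and 426 in WT arrays. The WT arrays were lower with 1 inside the zfs1-null range, and the log2 difference was 0.20 ± 0.06 (SE, n = 5 each, adjusted p = 0.0181). In project 488 dcp2 was 482, 524 and 482 in zfs1-null arrays against 404, 413 and 465 in WT arrays, which did not overlap (0.22, adjusted p = 0.0907), and the difference passed without WT replicate 3 (0.28, adjusted p = 0.0448) and with quantile normalization (0.30, adjusted p = 0.0367). In project 582 dcp2 was 535, 507 and 502 in zfs1-null arrays, which lay within the range of the WT arrays at 436, 551 and 599 (-0.03, adjusted p = 0.901). The zfs1 effect on dcp2 had an adjusted p of 0.273 in the test between projects, where its range was 0.24, and it passed without WT replicate 1 of project 582 (0.38, adjusted p = 0.028). The call over all projects was 0.14 ± 0.05 (SE, n = 11 each, adjusted p = 0.0364), and it was lost in 11 of 22 fits without 1 array, with adjusted p up to 0.0722. Those arrays were WT replicates 1 and 2 and zfs1-null replicate 2 of project 488, WT replicates 1, 2 and 3 and zfs1-null replicates 1, 2, 4 and 5 of project 529, and WT replicate 1 of project 582. The call over all projects was also lost with array medians set equal (0.12, adjusted p = 0.0528) and with a replicate block (adjusted p = 0.0652). It was lost too with all probe sets tested together (adjusted p = 0.0713) and without a project term (adjusted p = 0.29). The project 529 call was lost without WT replicate 2 (adjusted p = 0.0501). With quantile normalization it was 0.12 (adjusted p = 0.11), and with array medians set equal 0.14 (adjusted p = 0.0712), neither of which passed.

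With all arrays edc3 passed in none of the contrasts of strains. Its arrays ran from 252 to 429, with differences between zfs1-null and WT of -0.12 in project 488, 0.09 in project 529 and 0.22 in project 582, none called. Its zfs1 effect passed between projects under quantile normalization (0.36, adjusted p = 0.0491) but not with the deposited scaling (0.33, adjusted p = 0.16). In project 582 the zfs1-null arrays of edc3 lay narrowly above all WT arrays, 366.7 against 362.2 at the nearest (adjusted p = 0.265 in limma). The double null arrays lay just below all zfs1-null arrays, 366.1 against 366.7 at the nearest. That log2 difference was -0.27 (adjusted p = 0.161).

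**Figure D2:**
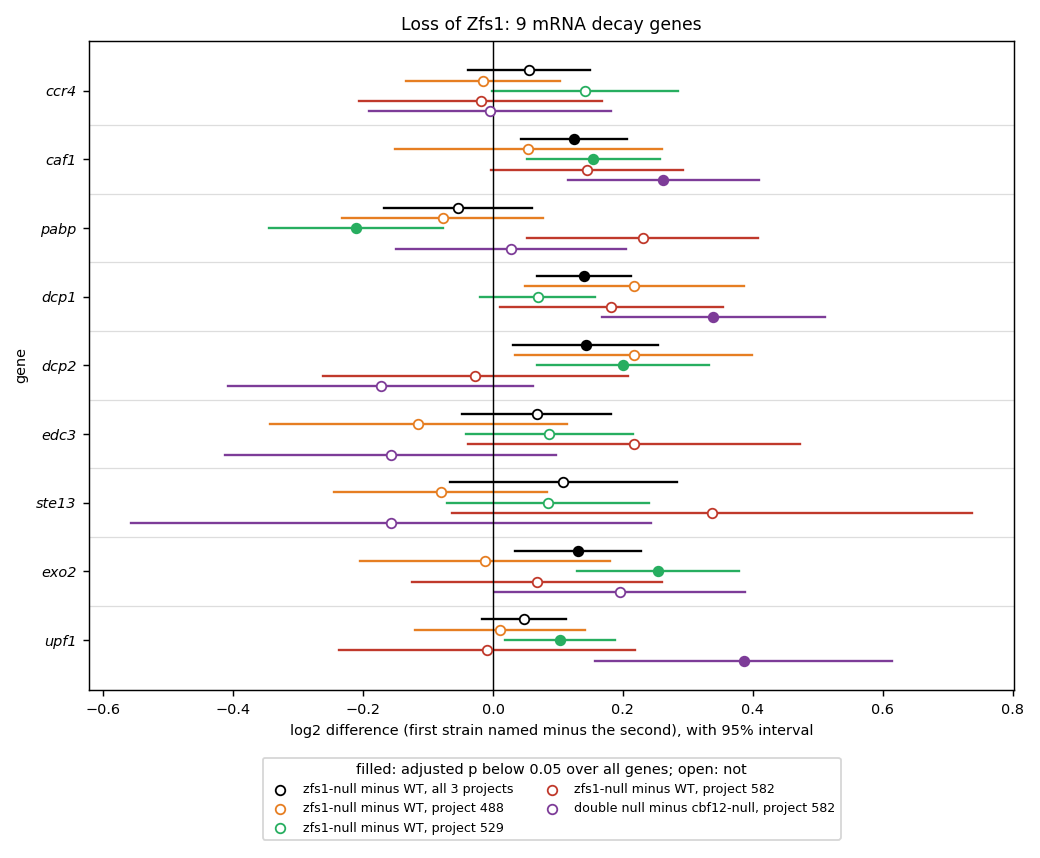
Log2 difference in signal (horizontal axis, first strain named minus the second) of the 9 decay genes (vertical axis) for loss of Zfs1 over all projects, in each project, and in the background without Cbf12. Points are limma estimates with 95% intervals, filled where the adjusted p was below 0.05. caf1 and dcp1 lie to the right of 0 in all 5 contrasts and pabp lies on opposite sides in projects 529 and 582.

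Ste13, the fission yeast Dhh1-type DEAD-box helicase, represses translation and promotes decapping, and it is known for its need in sexual development. ste13 had the widest spread among the 9 over the 8 groups, its highest group mean, in the zfs1-null of project 582, being 1.83-fold its lowest, in the WT of project 529. In project 582 ste13 was 1586, 1393 and 1808 in double null arrays, 1902, 2340 and 2071 in zfs1-null arrays, 1604, 1828 and 1887 in cbf12-null arrays, and 1067, 2036 and 2102 in WT arrays. WT replicate 1 stood far below the other WT arrays, and the WT group therefore had an SD of 579. No contrast passed with all arrays. The double null was below the zfs1-null by 0.40 without overlap (adjusted p = 0.185), and without WT replicate 1, which lies in neither group but adds to the pooled spread, the same difference passed (adjusted p = 0.0185). Against WT the double null differed by -0.06 with all arrays (adjusted p = 0.819) and by -0.38 without WT replicate 1 (adjusted p = 0.0168).

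Exo2 is the cytoplasmic 5′-to-3′ exonuclease of the Xrn1 type, which degrades decapped mRNA. In project 529 exo2 signal was 1015, 909, 1010, 914 and 988 in zfs1-null arrays, against 829, 913, 763, 742 and 813 in WT arrays. The zfs1-null arrays were higher with an overlap at the second WT array, and the log2 difference of 0.25 ± 0.06 (SE, n = 5 each, adjusted p = 0.00286) passed in all 10 fits without 1 array and in the 8 other settings. No difference in exo2 passed in the other projects. In project 488 exo2 was 1194, 1095 and 965 in zfs1-null against 1129, 1149 and 998 in WT arrays (-0.01, adjusted p = 0.934), and in project 582 it was 1053, 994 and 1012 in zfs1-null against 990, 926 and 1005 in WT arrays (0.07, adjusted p = 0.675). Over all projects exo2 was higher by 0.13 ± 0.05 (SE, n = 11 each, adjusted p = 0.027). That call was lost without WT replicate 3 or 4 or zfs1-null replicate 1 or 3 of project 529, at adjusted p of 0.0512 to 0.0561. It was also lost with all probe sets tested together (adjusted p = 0.055) and without a project term (adjusted p = 0.248). In the test of the zfs1 effect between projects exo2 had an adjusted p of 0.107, and it passed without WT replicate 2 of project 529 (adjusted p = 0.0499). The double null had exo2 signals of 1027, 1085 and 900, against 847, 980 and 804 in the cbf12-null, a difference of 0.20 that did not pass (adjusted p = 0.108) with all arrays. It passed without double null replicate 3 (0.27, adjusted p = 0.0391) and without cbf12-null replicate 2 (0.28, adjusted p = 0.0431).

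Upf1 is the helicase of nonsense-mediated decay, which removes transcripts with premature stop codons. upf1 was lower in the cbf12-null than in WT. In project 582 it was 912, 1044 and 729 in cbf12-null arrays, against 1191, 1167 and 1052 in WT arrays, with no overlap but a narrow gap. The log2 difference was -0.36 ± 0.11 (SE, n = 3 each, adjusted p = 0.0216), and it was lost without cbf12-null replicate 3, the array at 729 (-0.22, adjusted p = 0.123), without WT replicate 1 (-0.32, adjusted p = 0.0586) and without WT replicate 2 (-0.34, adjusted p = 0.0705). Under quantile normalization it was -0.26 (adjusted p = 0.0935) and with array medians set equal it was -0.25 (adjusted p = 0.094). The double null arrays of 1134, 1230 and 1110 overlapped the WT arrays, and they were above the cbf12-null by 0.39 ± 0.11 (adjusted p = 0.0123). That second call also rested on cbf12-null replicate 3, without which it was 0.25 (adjusted p = 0.0646). In project 529 upf1 was 790, 845, 830, 832 and 864 in zfs1-null arrays against 791, 779, 770, 756 and 776 in WT arrays, a difference of 0.10 ± 0.04 (adjusted p = 0.0494). That call was lost in 8 of 10 fits without 1 array (all except those without replicate 1 of either strain) and in 6 of 8 other settings.

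The contrasts that involve the cbf12 deletion gave at most 3 calls each among the 9 decay genes. Between cbf12-null and WT 1 of the 9 passed, upf1, which was lower, where 28.1% of all genes passed and 18.9% were lower. Their median log2 difference was 0.05, against -0.07 over all genes. Between double null and zfs1-null none passed in limma, 3 having an unadjusted p below 0.05, where 9.003% of all genes passed. Between double null and cbf12-null 3 passed, dcp1, caf1 and upf1, all higher, where 33.8% of all genes passed and 18.8% were higher. Between double null and WT dcp1 passed, higher, where 35.1% of all genes passed and 15.5% were higher. The interaction of the deletions was called for none of the 9 in limma, 2 having an unadjusted p below 0.05, where 9.76% of all genes passed. The contrasts of project 582, the interaction included, share control or null arrays and are not independent of each other. The interaction of upf1 was 0.40, with a 95% interval of 0.07 to 0.72 (adjusted p = 0.121), and it passed without cbf12-null replicate 2 (0.51, adjusted p = 0.0337).

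**Figure D3:**
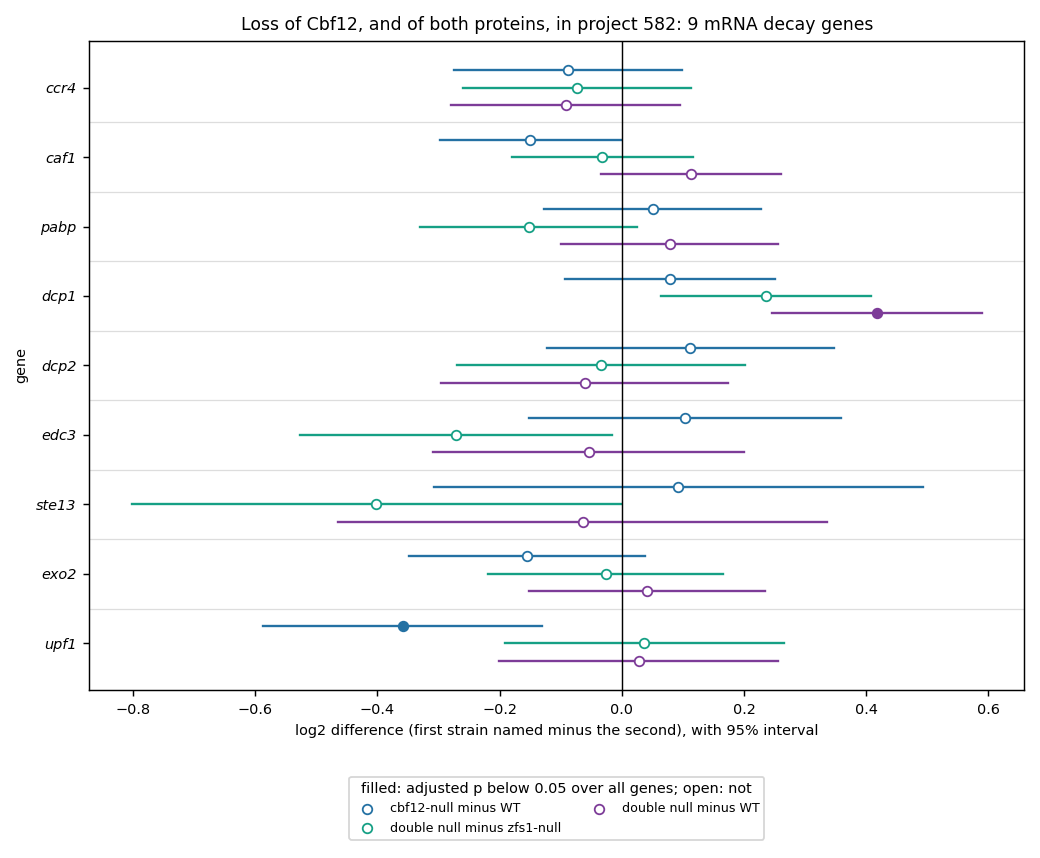
Log2 difference in signal (horizontal axis, first strain named minus the second) of the 9 decay genes (vertical axis) in project 582, for loss of Cbf12 with and without Zfs1 and for loss of both. Points are limma estimates with 95% intervals, filled where the adjusted p was below 0.05. The filled points are upf1 at -0.36 in cbf12-null minus WT and dcp1 at 0.42 in double null minus WT.

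The WT level of the decay genes differed between projects with the deposited scaling. All 9 passed the limma F test of project among WT arrays, where 79.99% of all genes passed, with ranges of the 3 project means from 0.27 (caf1) to 0.55 (upf1) on the log2 scale. Under quantile normalization dcp2 was lost (0.19 against 0.46, adjusted p = 0.296) and so was edc3 (0.14 against 0.32, adjusted p = 0.223). With array medians set equal edc3 (0.15, adjusted p = 0.226) and pabp (0.24, adjusted p = 0.057) were lost. The call was also lost for caf1 without WT replicate 1 (0.19, adjusted p = 0.0739) or replicate 2 (0.23, adjusted p = 0.0552) of project 488, and for pabp without WT replicate 3 of project 582 (0.24, adjusted p = 0.0855). dcp1 had its highest WT mean, 1595 ± 57 (SD, n = 5), in project 529, while upf1, exo2, caf1, dcp2, edc3 and ste13 had their lowest WT mean there. Over all 8 groups the ratio of highest to lowest group mean ran from 1.33 for ccr4 to 1.83 for ste13, with a median of 1.49, against 1.44 over all genes. Most neighbouring groups in the order of means overlapped in their arrays. How often neighbours overlap over all genes was not analysed, so the gaps below only describe the arrays of these genes. For ccr4, edc3 and exo2 no neighbours were apart, and all 7 steps of the order overlapped. caf1 was highest in the zfs1-null of project 488 and lowest in the cbf12-null, which was apart from its neighbour, the WT of project 529. pabp was highest in the zfs1-null of project 582, apart from the double null below it. dcp1 fell into a high set of both project 529 strains and the double null, and that set was apart from the rest. dcp2 had 1 gap between neighbours, between the zfs1-null of project 488 and the zfs1-null of project 529 below it. ste13 had 2 gaps between neighbours, between the zfs1-null of project 582 and the cbf12-null below it, and between the zfs1-null of project 488 and the zfs1-null of project 529 below it. upf1 was high in the double null, WT and zfs1-null of project 582, apart from all others.

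Few other genes of the pathway passed over loss of Zfs1. From a list of 42 genes that act with them, 27 were measured, and 7 passed between zfs1-null and WT over all projects, 6 higher and 1 lower, with a median log2 difference of 0.06. In either direction that is a smaller share than over all genes, of which 41.6% passed. The share that was higher was close to the 23.4% over all genes. The 5′-to-3′ nuclear exonuclease dhp1 was higher by 0.13 (adjusted p = 0.00793) and its activator din1 by 0.15 (adjusted p = 0.0128), and both of these genes on that sublist passed in project 529 too, at 0.23 and 0.28. In project 488 both differed by 0.05 (adjusted p = 0.678 for dhp1 and 0.666 for din1), and in project 582 dhp1 differed by 0.06 (adjusted p = 0.69) and din1 by 0.04 (adjusted p = 0.838), so neither passed there. Among 7 measured exosome and Ski genes rrp46, an exosome core subunit, had the largest difference at 0.38 (adjusted p = 1.99e-08), with 0.36 in project 488 and 0.40 in project 529, each called, and 0.35 in project 582, not called. upf3, a partner of Upf1, was lower by 0.32 over all projects (adjusted p = 2.63e-05). Its difference was called in project 529 (-0.38), and not in project 488 (-0.20) or project 582 (-0.33). Of 8 measured decapping partners lsm5 and lsm7, subunits of the Lsm ring that binds oligoadenylated mRNA ends, were higher by 0.09 and 0.11. None of the 6 measured deadenylation partners passed in limma over all projects, nor did any have an unadjusted p below 0.05. Within projects, rcd1 was higher by 0.23 in project 488 (adjusted p = 0.0451). In project 529 not3 was higher by 0.14 (adjusted p = 0.041) and not1 by 0.12 (adjusted p = 0.0274). That is 1 of 6 where 19.7% of all genes passed, and 2 of 6 where 42.2% passed.

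In project 582 the list was read in the same way. Between double null and cbf12-null 8 of 27 passed, all higher, among them rrp46 by 0.45, rcd1 by 0.40, lsm7 by 0.39 and lsm5 by 0.38, where 33.8% of all genes passed and 18.8% were higher. The median log2 difference was 0.15 for the list and 0.06 for all genes. Between cbf12-null and WT 4 passed, all lower, where 28.1% of all genes passed and 18.9% were lower. These were the CCR4-NOT ubiquitin ligase mot2 by 0.39, the CCR4-NOT subunit rcd1 by 0.35, the deadenylase pan2 by 0.31 and lsm4 by 0.45. Between double null and WT 6 passed, of which lsm7, lsm6, mtr4, lsm5 and lsm3 were higher, by 0.41, 0.34, 0.33, 0.31 and 0.29, and the CCR4-NOT scaffold not1 was lower by 0.31, where 35.1% of all genes passed and 15.5% were higher. Between double null and zfs1-null none passed in limma, 6 having an unadjusted p below 0.05, where 9.003% of all genes passed. The interaction passed for lsm4 alone, at 0.41 (adjusted p = 0.0216), where 9.76% of all genes passed. The list was drawn up with earlier results of these data known and was not tested as a set.

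Few of the 9 genes moved together across arrays. After each project's mean was taken out, the Pearson correlation of log2 signal over the 28 arrays had a median of 0.07 among the 36 pairs, from -0.29 for pabp with dcp2 to 0.74 for caf1 with exo2, and 22 pairs were positive. Over all pairs of genes the median was 0.02. exo2 with upf1 had 0.63, caf1 with upf1 0.54 and caf1 with dcp1 0.51. These arrays share strains and array effects, so the values describe the arrays and no test was made. The genes most like each member by the same measure were fta7 and pom1 for ccr4 (r = 0.69 each), meu34 and the capping enzyme ceg1 for caf1 (0.78 each), lcf1 and sal3 for pabp (0.64 each), ssl1 and cog2 for dcp1 (0.84 and 0.81), mug2 and vps51 for dcp2 (0.68 and 0.67), cdc37 and fhl1 for edc3 (0.70 each), bet1 and vps54 for ste13 (0.84 and 0.78), ino80 and pik1 for exo2 (0.81 and 0.78), and nsp1 and trk1 for upf1 (0.83 and 0.82).

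**Figure D4:**
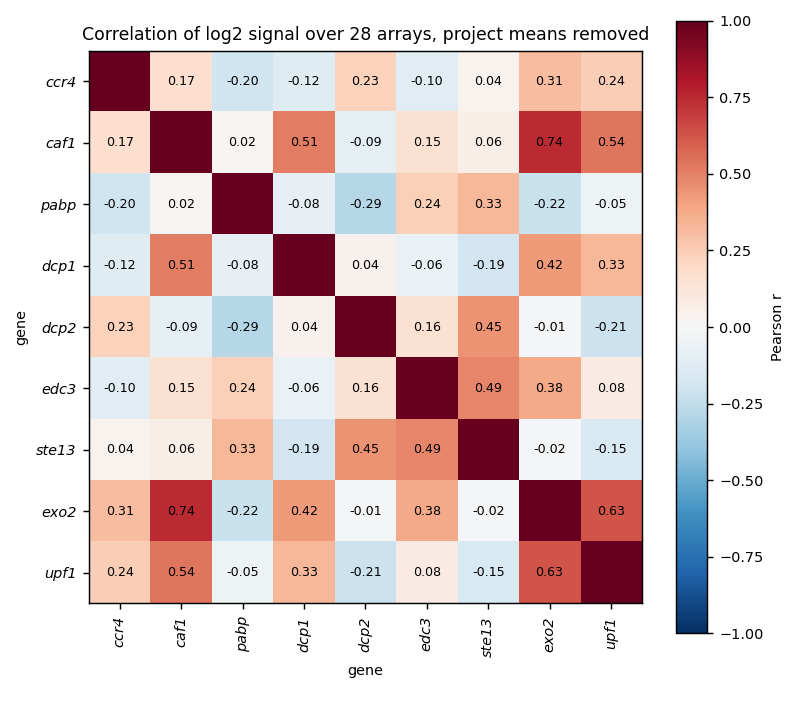
Pearson correlation of log2 signal between each pair of the 9 decay genes over 28 arrays after each project's mean was removed; rows and columns are genes and the colour scale runs from -1 to 1. The highest value is 0.74 for caf1 with exo2 and the lowest is -0.29 for pabp with dcp2.

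The genes that share only a name were pab1 and hba1. pab1, the phosphatase subunit, passed in no contrast of strains, and its arrays ran from 414 to 575. hba1 fell in the cbf12-null, with 577, 766 and 698 against 964, 1135 and 1001 in WT arrays, at a log2 difference of -0.61 ± 0.16 (SE, n = 3 each, adjusted p = 0.0114). That call was lost without WT replicate 2 (adjusted p = 0.0517) or cbf12-null replicate 1 (adjusted p = 0.0632). In the double null it was 735, 441 and 737, a difference of -0.73 from WT (adjusted p = 0.00348). With the WT level of project 582 estimated from its zfs1-null arrays, neither passed in limma. The values were then -0.12 for the cbf12-null (adjusted p = 0.623) and -0.24 for the double null (adjusted p = 0.232). That estimate applies the zfs1 effect of projects 488 and 529 to project 582, where the measured hba1 effect had the opposite sign. It therefore cannot decide whether hba1 fell. hba1 also differed in its response to loss of Zfs1 between projects (limma F test, adjusted p = 0.00178), with a log2 difference of 0.25 in project 529 (adjusted p = 0.0028) and -0.27 in project 582 (adjusted p = 0.308).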

How the data were processed

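Intensities are the MAS5 signals that the authors deposited in the series matrix, per the submitters' processing notes, which name MAS5 with no version or settings. Every array had a 2% trimmed mean of 500.1 to 500.2, so the signals were already scaled. Of 10928 probe sets 2917 name 1 S. pombe gene, 20 name several, 2601 belong to another species and 5390 were not listed in the platform annotation used. Where several probe sets named a gene the brightest was kept, giving 2899 genes, of which 113 had their symbol updated from RefSeq (assembly ASM294v3). Background was the 95th percentile of the other species' probe sets, 3.65 to 5.44 per array, and 2896 to 2899 genes lay above it.

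The log2 signals were tested with limma 3.58.1 (lmFit, eBayes with an intensity trend, R 4.3.3), two-sided, with Benjamini-Hochberg adjustment over all 2899 genes and a threshold of 0.05. Project was a term in the fit over all projects, and the 4 strains of project 582 were fitted together. The script was tested on simulated data. The median SD within groups was 0.07 to 0.14 on the log2 scale, which, with 3 to 5 arrays per group, limits the precision. The members and lists were chosen with earlier results of these data known. All 9 decay genes were described. Of each list of partners (deadenylation, decapping, 5′-to-3′ decay, surveillance, exosome and Ski, uridylation), at most 4 called genes per comparison, those with the largest difference, were named. Alternatives were other scalings, a pseudocount, no trend, other probe set and gene choices, a replicate block, leaving out each array, and other fits for single comparisons. Sequences and coordinates were not used here.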

Additional observations from a re-analysis of the deposited data

Results flagged for a closer look

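pabp stood out on the WT arrays of project 529, where replicate 1 had a signal of 1373 and the other 4 had 1055 to 1132, a gap to the nearest array of 0.758 of the whole range. Both groups of 5 arrays, those of project 529, were examined in this way for the 9 decay genes, pab1 and hba1. Of these 22 sets of values 1 had such an array. Chance gives about 1 in 20 for independent sets, but these sets share the same arrays. The pabp difference between zfs1-null and WT also differed between projects (limma F test, adjusted p = 0.0143), being -0.08 in project 488, -0.21 in project 529 and 0.23 in project 582. hba1, which shares only a name with the decay genes, differed between projects as well (limma F test, adjusted p = 0.00178), being 0.18 in project 488, 0.25 in project 529 and -0.27 in project 582.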

How the results depend on the processing

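Of the 9 decay genes, those called between zfs1-null and WT over all projects numbered 4, and 2 with all probe sets tested together, 0 without a project term and 2 to 4 without 1 array. Between WT arrays of the projects it was 9, and 7 with quantile normalization or array medians set equal and 8 to 9 without 1 array. In project 488 the count was 0, and 1 with quantile normalization and 0 to 1 without 1 array. In project 529 it was 5, and 2 with quantile normalization, 2 with array medians set equal and 3 to 5 without 1 array. In project 582 it was 0, and 0 to 1 without 1 array. For the zfs1 effect between projects it was 1, and 2 with quantile normalization and 1 to 2 without 1 array. For cbf12-null against WT it was 1, and 0 with quantile normalization or array medians set equal, 3 with the WT level of project 582 estimated from its zfs1-null arrays and 0 to 1 without 1 array. For double null against zfs1-null it was 0, and 1 with array medians set equal and 0 to 1 without 1 array. For double null against WT it was 1, and 2 with array medians set equal, 3 with the estimated WT level and 1 to 2 without 1 array. For the interaction it was 0, and 0 to 1 without 1 array. With the estimated WT level the pabp difference from WT was -0.34 (adjusted p = 0.00929) in the cbf12-null, where the WT arrays gave 0.05, and -0.31 (adjusted p = 0.0151) in the double null, where they gave 0.08. That estimate leaves out the WT arrays of project 582 and applies the zfs1 effect of projects 488 and 529 to its zfs1-null arrays. For pabp the zfs1 effect differed between projects (limma F test, adjusted p = 0.0143). The estimated level therefore cannot stand in for the WT arrays of pabp.

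The samples were not taken as paired, since not every same-numbered pair correlated above 0.1. Same-numbered arrays ran from -0.06 to 0.16 against -0.09 to 0.11 for different numbers in project 488, from -0.30 to 0.31 against -0.28 to 0.29 in project 582, and from -0.05 to 0.14 (median 0.09) against -0.17 to 0.08 (median -0.00) in project 529. In project 529, 4 of the 5 same-numbered pairs lay above all 20 others, a hint of pairing from the data that the pair numbered 1 does not share. With a replicate block 1 decay gene was called in project 488, dcp1 (adjusted p = 0.0467), 4 in project 529 and 3 over all projects.

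Scaling moved the direction of calls over all genes. With array medians set equal, 491 genes were higher and 739 lower in project 529 (746 and 477 as deposited), 434 higher and 272 lower in cbf12-null against WT (266 and 549), and 659 higher and 383 lower in double null against WT (448 and 570). The median of all genes in cbf12-null against WT was then 0.04, not -0.07. Genes called also moved by over 1.5 times without a project term (481), with quantile normalization (321 between projects, 601 in double null against WT) and with only the 2 strains compared (164 in double null against zfs1-null, 599 against WT). Without 1 array they ranged from 312 to 759 in project 488, 183 to 544 in project 582, 490 to 1068 in cbf12-null against WT and 120 to 446 in double null against zfs1-null. With all 10928 probe sets together 1876 passed over all projects, 864 in project 488, 1861 in project 529, 511 in project 582, 3991 between WT arrays, 1249 in cbf12-null against WT, 481 in double null against zfs1-null, 1505 against cbf12-null, 1547 against WT and 510 for the interaction. Few arrays per group and unstated MAS5 settings limit what can be resolved.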
